A study of Drosophila melanogaster with 3 samples.

Results

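The genes described here encode the general transcription machinery and Mediator of Drosophila melanogaster. They were the protein-coding genes whose symbols name a Mediator subunit (MED), a TBP-associated factor (Taf), a general factor of the TfII series or an RNA polymerase subunit (Polr), plus kto, skd, Cdk8 and CycC of the Mediator kinase module. The rule found 83 of the 13945 protein-coding genes on the 6 main chromosome arms. They comprised 25 core Mediator genes, 4 kinase module genes, 15 Taf genes, 9 TfII genes, and 7, 13 and 10 genes named for polymerases I, II and III. Binding of Pdp1, a basic leucine zipper factor of the PAR class, was measured by ChIP-seq with an antibody against GFP. The material was whole embryos of mixed sex, 0 to 24 h old, from 1 transgenic strain (Pdp1-GFP) that stably expressed Pdp1 with a C-terminal eGFP. The series held 1 group of 3 biological replicates and no second condition, so a peak cannot be assigned to a cell type or an age within the collection. The authors deposited a list of 30000 lines for each replicate and an optimal list of 13583 peaks. Read depth was unknown, and control libraries were not analysed here.

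To start a transcript, TFIID, made of the TATA-binding protein and the Taf proteins, settles on the core promoter, and TFIIA, TFIIB, TFIIE, TFIIF and TFIIH then place RNA polymerase II at the start site. Mediator connects factors bound elsewhere to this assembly through its head, middle and tail modules, with MED14 as the scaffold. A dissociable kinase module holds Cdk8, CycC, kto (the fly MED12) and skd (the fly MED13). Polymerases I and III, which make ribosomal RNA and small RNAs such as tRNAs, share several subunits with polymerase II. Most of these genes are needed in all cells, and flies also have variants that serve mainly the testis. PAR bZIP proteins bind as dimers to the palindrome TTACGTAA and to near-palindromes such as its variant TTATGTAA.

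The first sequences below are examples of members' strongest summits that carried such a site or a related word. A summit is the position of highest signal that the authors' list gives for a peak, and the lines below give the plus strand of the Release 6 reference (dm6, RefSeq) around it, 5′ to 3′, left to right. Each runs up to 50 bp from the summit and stops earlier where an annotated UTR begins. Capitals mark an 8-base word of the PAR bZIP family. The family searched was TTACACAA, TTACATAA, TTACGCAA, TTACGTAA, TTATACAA, TTATATAA, TTATGCAA, TTGCACAA, TTGCGCAA and TTGTACAA, on both strands. It contains the C/EBP word TTGCGCAA. The windows of CycC, TfIIA-L and MED31 held a canonical site, TTATGTAA reading TTACATAA on the other strand, and those of MED19, Taf12 and Taf6 held another word of the family. They were picked for these words. Of the 44 distinct strongest peaks at members, 9 (20.5%) had a family word within 50 bp. Over all 62 optimal peaks near members' start sites, weaker ones included, the share was 21.0%, against 26.1% of all optimal peaks near a start site.
CycC (chr3R:14890412-14890512): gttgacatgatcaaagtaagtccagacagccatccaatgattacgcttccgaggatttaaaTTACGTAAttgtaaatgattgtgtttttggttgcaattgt
TfIIA-L (chr3R:27253305-27253405): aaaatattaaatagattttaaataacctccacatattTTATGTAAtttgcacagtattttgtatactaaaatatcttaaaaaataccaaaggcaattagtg
MED31 (chr3R:4641234-4641328): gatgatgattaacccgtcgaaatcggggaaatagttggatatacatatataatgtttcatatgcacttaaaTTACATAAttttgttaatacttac
MED19 (chr3L:17847224-17847324): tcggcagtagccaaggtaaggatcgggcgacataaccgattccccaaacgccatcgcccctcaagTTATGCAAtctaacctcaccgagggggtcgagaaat
Taf12 (chr3R:11679891-11679991): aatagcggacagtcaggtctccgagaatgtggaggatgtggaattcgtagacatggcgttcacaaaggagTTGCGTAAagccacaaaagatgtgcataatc
Taf6 (chr3L:19598807-19598907): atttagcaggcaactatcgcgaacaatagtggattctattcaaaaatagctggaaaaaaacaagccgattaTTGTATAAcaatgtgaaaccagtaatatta

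Other strong summits held no word of this family in the stretch shown. Taf4, the member with the third highest signal, is shown for that reason. MED28 is shown because its stretch held 2 copies of TATCGATA, in capitals, known as DRE, a word frequent in the promoters of fly housekeeping genes. A TTACATAA also lay within 50 bp of the MED28 summit, in the part that is not shown.
Taf4 (chr3L:16113679-16113779): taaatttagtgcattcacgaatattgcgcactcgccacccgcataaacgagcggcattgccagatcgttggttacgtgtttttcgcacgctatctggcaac
MED28 (chr3R:25476916-25476979): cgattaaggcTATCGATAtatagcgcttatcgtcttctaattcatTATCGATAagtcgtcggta

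A gene was called bound when the summit of an optimal peak lay within 1 kb of one of its annotated transcription start sites (TSSs). By this rule 45 of the 83 genes (54.2%) were bound, against 44.1% of all 13945 protein-coding genes. Bound genes were spread over all the complexes. They numbered 14 of 25 in core Mediator (5 of 9 head, 6 of 9 middle and 3 of 6 tail genes, and not MED14), 3 of 4 in the kinase module, 10 of 15 among Taf genes and 5 of 9 among TfII genes. The polymerase genes were nearer to the share over all genes, with 3 of 7 for polymerase I, 6 of 13 for polymerase II and 4 of 10 for polymerase III. The series has no second condition, so these shares are descriptions and were not tested.

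**Figure D1:**
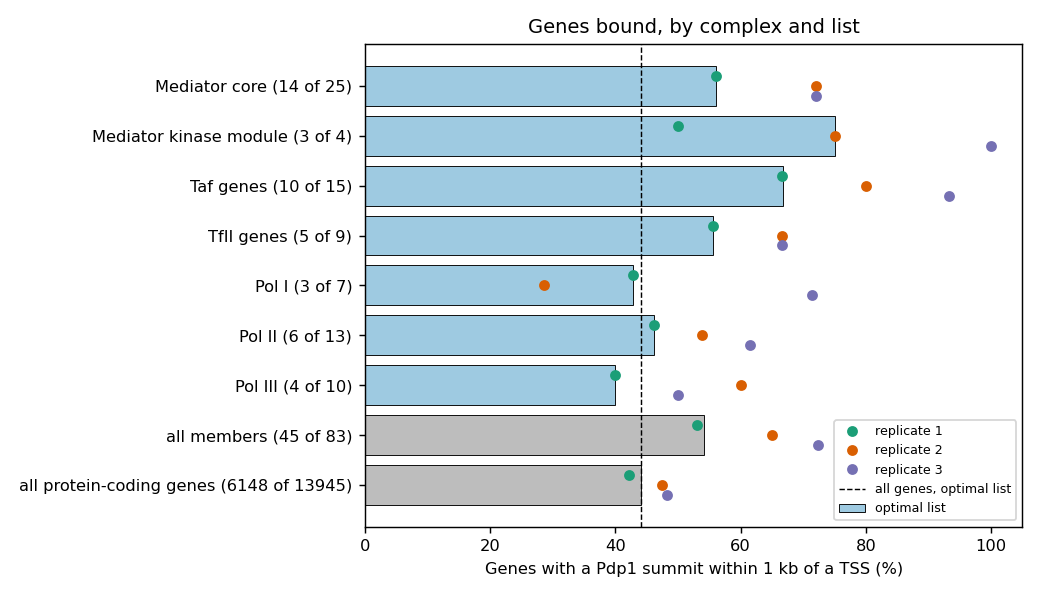
Share of genes (x axis, %) with a Pdp1 summit within 1 kb of a TSS, by complex, for the members together and for all protein-coding genes. Bars give the optimal list with counts beside the names, points the 13583 strongest lines of each replicate, and the dashed line all genes in the optimal list (44.1%); in the last 2 rows the points of replicates 2 and 3 lie to the right of that of replicate 1.

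The replicates gave the same direction with different sizes. Taking the 13583 strongest lines of each replicate, as many as there are optimal peaks, replicate 1 had a summit near a TSS of 44 members (53.0%), replicate 2 of 54 (65.1%) and replicate 3 of 60 (72.3%). The shares over all protein-coding genes in the same lists were 42.1%, 47.5% and 48.3%. Replicate 3 was thus the highest and replicate 1 the lowest for the members. Members exceeded the other protein-coding genes by 11.0, 17.7 and 24.2 percentage points in replicates 1, 2 and 3. The mean difference was 17.6 points ± 6.59 (SD, n = 3; members 63.5% ± 9.74, other genes 45.9% ± 3.31). It was positive in 3 of 3 replicates, and the exact two-sided sign-flip permutation test over replicates gave p = 0.25, the smallest that 3 replicates allow. With the 6791 strongest lines of each replicate the differences were 2.17, 17.6 and 10.5 points, so that of replicate 1 was small among strong lines.

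These genes lay more often than most beside a neighbour that is transcribed away from them. Of the 83 members, 57 (68.7%) had the TSS of an opposite-strand gene within 1 kb upstream of one of their own, against 36.2% of all protein-coding genes. In the optimal list 37 of these 57 members were bound (64.9%), next to 64.7% of the 4995 other genes with such a neighbour. Of the 26 members without one, 8 were bound (30.8%), next to 32.4% of 8867 other genes. Within each of these classes the members' share in the optimal list was therefore close to that of other genes. In the replicate lists, members with a divergent neighbour exceeded the like genes by 4.43, 9.61 and 11.7 points, a mean of 8.57 ± 3.73 (SD, n = 3; exact two-sided permutation p = 0.25). Members without one differed by -4.74, -3.22 and 11.8 points, so only replicate 3 had them higher. This split was chosen after the data were seen.

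Summits at bound members lay mostly upstream of the start. At 41 of the 45 bound members (91.1%) the strongest summit was upstream of the gene's nearest TSS, against 68.0% over all bound genes. The median distance was 126 bp, against 195 bp over all bound genes. A divergent neighbour was present at 37 of the 45 bound members and at 3268 of the 6148 bound genes. Positions were not split by this, so its part in these differences was not tested. The exceptions were MED6, MED9, Polr1D and Polr3K, with summits 3, 372, 89 and 200 bp downstream. At 22 of the 45 the TSS of another gene was nearer to the strongest summit than the member's own, and its own was nearest or equally near at 23 (51.1%, against 73.3% over all bound genes). Counting only summits nearest to a gene's own TSS, 29 members were bound (34.9%), next to 35.2% of all protein-coding genes. Of the 44 distinct strongest peaks, 24 had an intergenic summit, 11 lay in a 5' UTR, 7 in an intron and 2, at Taf12 and Polr2B, in a coding exon of the neighbour. These classes were not counted over all bound genes. Taf10 and Taf10b, paralogs transcribed away from each other, shared 1 peak, with its summit 15 bp upstream of Taf10 and 30 bp upstream of Taf10b (signal 240.3).

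**Figure D2:**
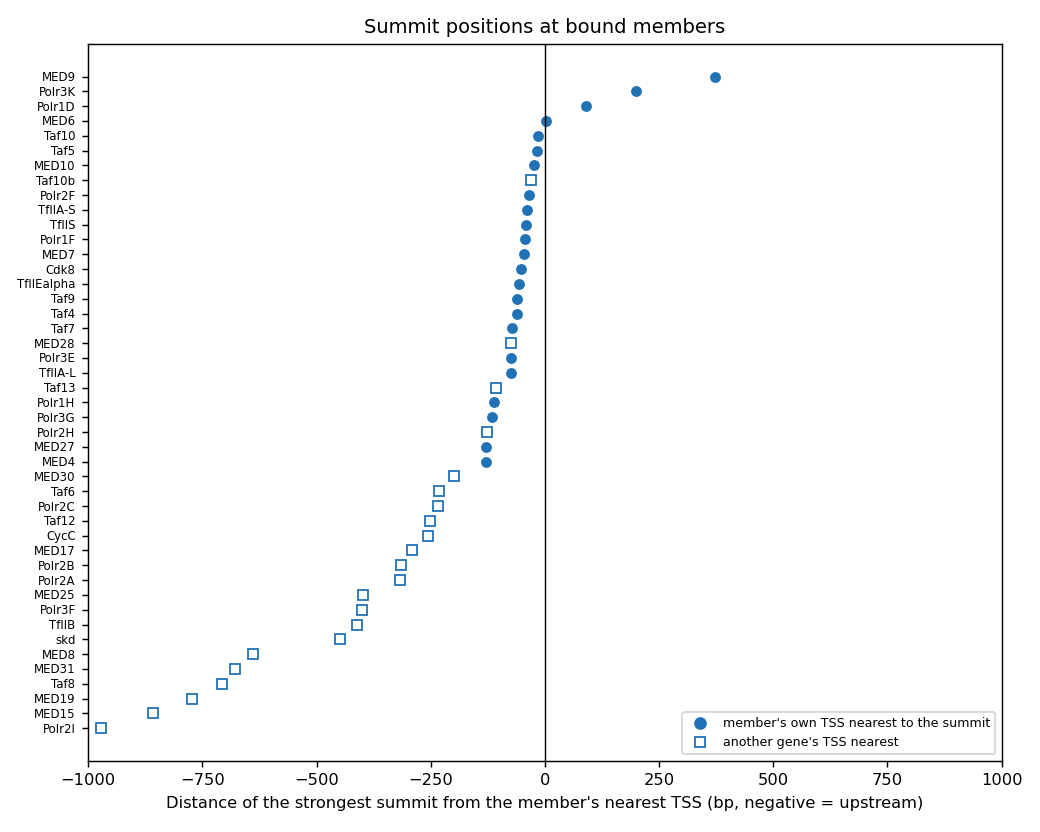
Distance in bp (x axis) of each bound member's strongest summit from its own nearest TSS, negative upstream, 1 member per row. Filled circles are summits nearest to the member's own TSS and open squares those nearest to another gene's TSS; every open square lies upstream, from 30 bp at Taf10b to 971 bp at Polr2I.

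Peak strength at the members was ordinary for bound genes. Signal here is the authors' own value for a peak, and it ranks peaks within 1 list only. The strongest TSS peak of a bound member had a median signal of 435.3, with values from 159.6 at Taf8 to 2906 at MED19, against a median of 462.3 over all bound genes. Of the 44 distinct peaks, 8 (18.2%) were among the 1358 strongest of the optimal list, next to 19.6% of the 4537 strongest TSS peaks of all bound genes. These 8 belonged to MED19, CycC, Taf4, MED30, TfIIB, TfIIA-L, MED28 and MED27. Another 16 of the 44 lay in the weaker part of the list, past rank 6791, a count not made over all bound genes. The median rank per bound member was 4758, next to 4350 over all bound genes. Medians were 680.9 in core Mediator, 601.5 at TfII genes, 549.9 at polymerase I genes, 366.8 at polymerase II genes, 331.5 at polymerase III genes, 244.0 at Taf genes and 215.8 in the kinase module.

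**Figure D3:**
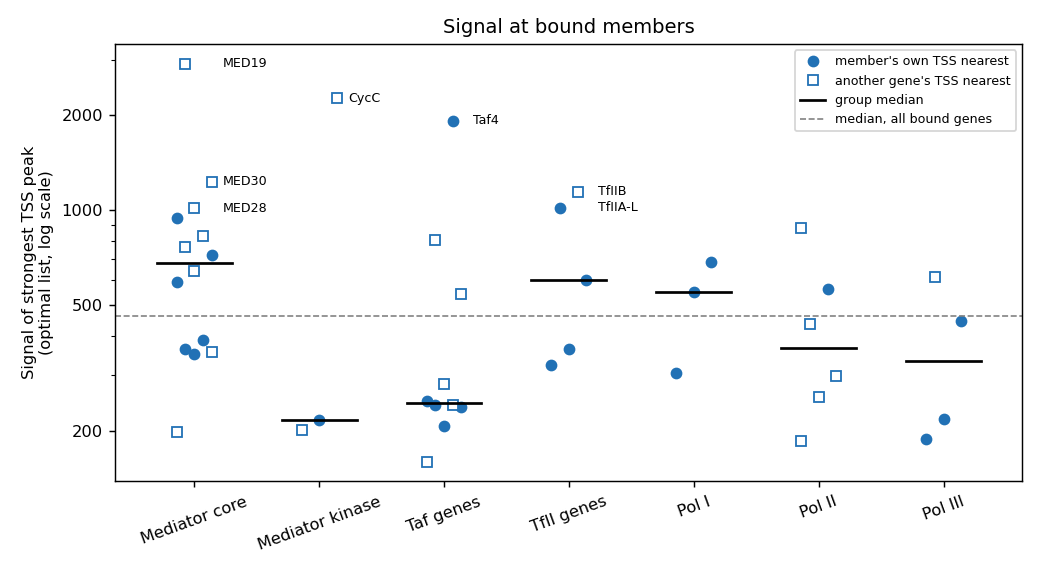
Signal of the strongest TSS peak in the optimal list (y axis, log scale) for each of the 45 bound members by complex; filled circles have the member's own TSS nearest and open squares another gene's. Short lines are group medians and the dashed line is the median over all bound genes (462.3); MED19, CycC and Taf4 stand highest.

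Core Mediator held the strongest peak of the whole set. At MED19, a middle-module subunit that also works as a cofactor of Hox proteins in flies, the peak at chr3L:17846965-17847539 had a signal of 2906 and ranked 110 of 13583. Its signals in replicates 1, 2 and 3 were 1835, 617.0 and 460.2, at ranks 89, 225 and 125, so it was strong in each. The summit lay 773 bp upstream of MED19 and 238 bp from the TSS of CG7430, in an intron of that gene, and the word TTATGCAA was centred 19 bp from it. A second summit nearer to MED19 had a signal of 198.1. MED30, a head subunit of animals, followed with a signal of 1231 (rank 787), and its summit lay 198 bp upstream of its TSS and 76 bp from that of Rev1, a translesion DNA polymerase. Its ranks in replicates 1, 2 and 3 were 1575, 434 and 590.

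MED28, another head subunit, had a single peak of signal 1012 (rank 1132) that ranked 1292, 1511 and 1011 in replicates 1, 2 and 3. Its summit lay between the start sites of MED28, 74 bp away, and CG4553, 14 bp away. MED27, a tail subunit, had a peak of signal 941.9 (rank 1315) 129 bp upstream of its own TSS. The latter ranked 3997, 336 and 2513 in the 3 replicates, so replicate 2 placed it far higher than replicate 1. MED7 of the middle module had the same order, with ranks of 6160, 528 and 5907 for a peak of signal 723.1 that lay 45 bp upstream of its start. The remaining bound core genes were MED15, MED31, MED25, MED4, MED9, MED10, MED17, MED6 and MED8, with signals from 198.7 at MED8 to 830.3 at MED15, a tail subunit that contacts activators. The summits of MED15, MED31 and MED25 lay 858, 679 and 398 bp upstream of these genes, and each was nearer to a neighbour (CG4297, CG9775 and Hs6st). Those of MED4 and MED10 lay 130 and 23 bp upstream of their own starts.

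In the kinase module the cyclin and its kinase differed. CycC, the cyclin partner of Cdk8, had a peak at chr3R:14890120-14890756 with a signal of 2258 (rank 219). It ranked 165, 531 and 222 in replicates 1, 2 and 3, with signals of 1474, 419.8 and 368.4. TTACGTAA was centred 15 bp from the summit, which lay 257 bp upstream of CycC and 231 bp from the TSS of UQCR-C1, a core subunit of respiratory complex III, in an intron of that gene. Cdk8 itself had a weak peak 52 bp upstream of its start, with a signal of 215.8 (rank 10563) and replicate ranks of 15527, 6340 and 11903. At skd the strongest TSS summit had a signal of 200.4 and lay 33 bp from the TSS of Pdss2, an enzyme of ubiquinone synthesis. Replicate 1 had no line within 200 bp of it, though one at rank 7144 lay within 1 kb of a skd TSS. Within the body of skd, farther than 1 kb from a TSS, stood 4 more optimal summits, the strongest with a signal of 945.0. The only other member with such a summit was MED15, with 1 of signal 490.5. kto was not bound.

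Among Taf genes Taf4 stood apart from the rest. Taf4, a large TFIID subunit that pairs with Taf12 through a histone fold, had a peak at chr3L:16113391-16113918 with a signal of 1918 (rank 314). Its ranks were 442, 220 and 320 in replicates 1, 2 and 3 (signals 985.7, 621.2 and 321.5), and the summit was 61 bp upstream of the nearest of its 3 TSSs. Taf12, its partner, had a peak of signal 806.0 (ranks 2207, 1791 and 1517) 198 bp from the TSS of Ho, haem oxygenase, in a coding exon of Ho. Taf6, a histone-fold subunit that pairs with Taf9, had one of 542.1 (ranks 6091, 1780 and 3434) that lay nearer to ash1, a histone methyltransferase gene. Taf13, a histone-fold subunit that pairs with Taf11, had one of 280.3 (ranks 13506, 4226 and 9762), nearest to nesd. The other 6 bound Taf genes, Taf5, Taf10, Taf10b, Taf7, Taf9 and Taf8, had signals from 159.6 to 247.6. The Taf5 summit had no replicate 2 line within 200 bp, though one at rank 3551 lay within 1 kb of its TSS.

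Among the 9 TfII genes, those of TFIIB and TFIIA had the strongest peaks. TFIIH genes have other symbols and are counted further below, where Ssl1 had a higher signal (4171). TfIIB, the factor that joins TBP to the polymerase, had a peak of signal 1144 (rank 922; replicate ranks 1320, 661 and 1056), 411 bp upstream of its start and 9 bp from that of Bug22. TfIIA-L, the precursor of the larger TFIIA subunits, had one of 1017 (rank 1125; replicate ranks 2895, 502 and 768), 75 bp upstream of its own TSS and with TTATGTAA centred 9 bp from the summit. TfIIA-S, the small TFIIA subunit, had one of 601.5 (ranks 3784, 2252 and 3879), and TfIIEalpha, a TFIIE subunit, one of 363.0 (ranks 11024, 4199 and 2501). TfIIS, which rescues stalled polymerase II, had one of 322.0. The TFIIF genes TfIIFalpha and TfIIFbeta were both unbound, and so was TfIIEbeta.

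The polymerase genes lacked very strong peaks, and none passed a signal of 875.1. That value belonged to Polr2H, a subunit that all 3 polymerases share, at ranks 3779, 419 and 3732 in replicates 1, 2 and 3, with its summit on the TSS of CG11247 (0 bp). Polr2F, also shared, had a signal of 563.7 (ranks 5137, 1690 and 3917) 34 bp upstream of its start. The largest and second largest polymerase II subunits, Polr2A and Polr2B, had 298.4 and 435.3. Their summits lay nearer to the neighbours CG11699 and 140up. The Polr2B summit had no replicate 2 line within 200 bp, though one at rank 2237 lay within 1 kb of its TSS. For polymerase I, Polr1D, which is also part of polymerase III, had 684.0 (ranks 2189, 5261 and 1968). Polr1H had 549.9, with no replicate 2 line within 200 bp of its summit, and Polr1F, of the stalk, 304.3. For polymerase III, Polr3F had 615.4 (ranks 3175, 2889 and 3535), 237 bp from the TSS of PyK, pyruvate kinase, and Polr3E 444.9 (ranks 7243, 2105 and 6269). Polr3G and Polr3K had 218.1 and 188.7. The weakest polymerase II genes, Polr2C and Polr2I, had 255.5 and 185.4. Within 200 bp of these summits Polr2C had no line in replicate 3 and Polr2I none in replicate 2. Other lines of those replicates, at ranks 10959 and 5919, did lie within 1 kb of the TSSs of Polr2C and Polr2I. The Polr2C summit lay 2 bp from a start that GatC and PolG2 share, and that of Polr2I was 971 bp upstream and nearer to su(Hw), the insulator protein gene.

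**Figure D4:**
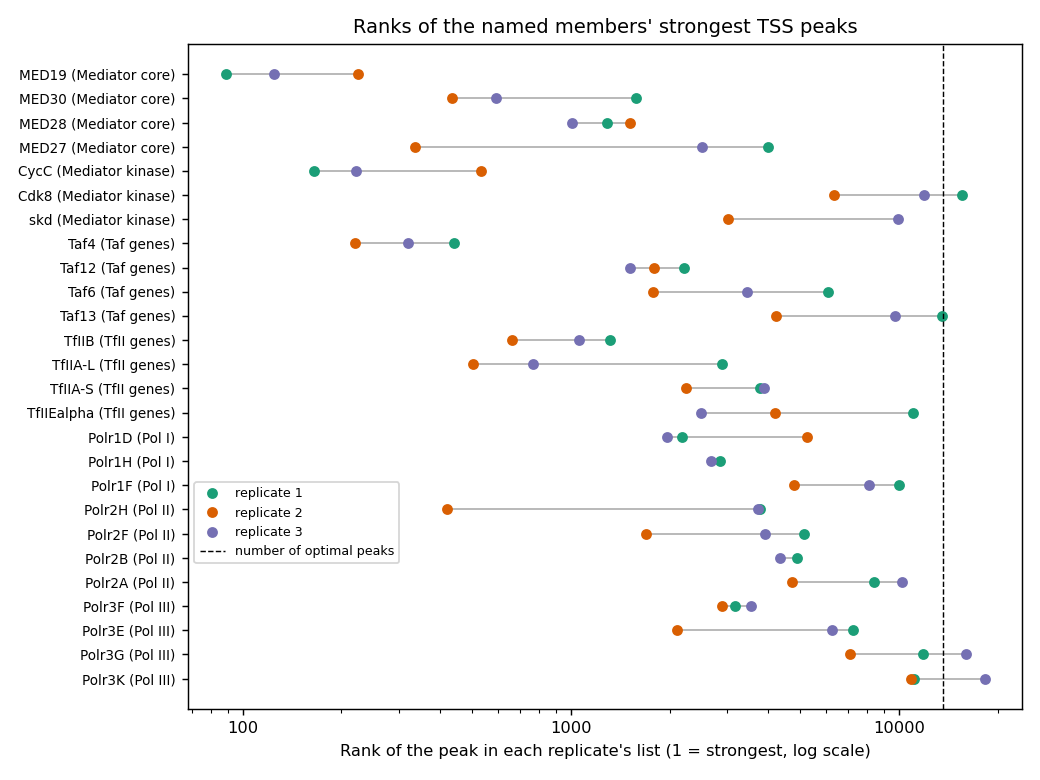
Rank (x axis, log scale, 1 strongest) of the strongest TSS peak of the 4 highest-signal bound members of each complex in the list of each replicate; a missing point means no line within 200 bp. The dashed line marks rank 13583; MED19, CycC and Taf4 rank high in every replicate, while MED27, TfIIA-L and Polr2H rank much higher in replicate 2 than in replicate 1.

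Member peaks that had a line ranked mostly higher in replicates 2 and 3 than in replicate 1. The 44 strongest TSS peaks had median ranks of 6079, 2952 and 3879 in replicates 1, 2 and 3, over the 42, 38 and 43 that had a line within 200 bp. The strongest TSS peaks of all bound genes had medians of 5330, 4276 and 4356, over the 4430, 4346 and 4395 of 4537 that had a line. Members thus lacked a line in replicate 2 more often than other genes, and such peaks enter no median. Of the 36 member peaks with a line in both, 27 (75.0%) ranked higher in replicate 2 than in replicate 1, against 54.0% over all bound genes. For replicate 3 this held for 29 of 41 (70.7%), against 60.4%. All 3 replicates held 30 of the 44 (68.2%, against 74.0%) among their 13583 strongest lines. The shares here are over peaks, which are not replicates of a condition, and were not tested.

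Words of the PAR bZIP family stood at some member summits, mostly those nearer to a neighbour. Of the 62 distinct optimal summits within 1 kb of a member's TSS, 13 had a word within 50 bp (21.0%, 95% Wilson interval 12.7 to 32.6), and 1 of 62 windows of the same width 300 bp away did. Over all 6919 optimal TSS peaks the shares were 26.1% and 4.42%. Mediator genes had 8 of 25, Taf and TfII genes 3 of 17 and polymerase genes 2 of 20. The canonical words TTACGTAA and TTATGTAA were at 5 summits (8.06%, against 8.34% over all TSS peaks), those of CycC, TfIIA-L, MED28, MED31 and MED8. Where a member's own TSS was the nearest, 2 of 31 summits had a family word (6.45%, Wilson interval 1.79 to 20.7), at TfIIA-L and MED9. Where another gene's TSS was nearer, 11 of 31 did (35.5%, 21.1 to 53.1).

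Distance from a start site moved with this difference, and with TSS windows of 500 and 250 bp the share of member summits with a family word was 12.2% and 8.11%. Summits within 100 bp of the nearest TSS had a family word at 2 of 39 members' peaks (5.13%) and at 13.3% of all 2614 such TSS peaks. Summits 101 to 1000 bp away had one at 11 of 23 members' peaks (47.8%) and at 33.9% of 4305. The median distance to the nearest TSS was 57 bp where it was a member's and 102 bp where it was another gene's, and the part of distance in the difference was not tested. By strength, the word-bearing summits of highest signal were those of MED19, CycC, TfIIA-L and MED28. Taf4, MED30 and TfIIB, of similar signal, had none within 50 bp.

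Other motifs were rare at these summits. TATCGATA was at 2 of 62 (3.23%, against 3.54% over all TSS peaks), at MED28 and at a weak summit of MED8. In the promoter, taken as 250 bp before to 50 bp after the outermost TSS, it was present at 12 of 83 members (14.5%), 6 of them bound and 6 unbound, against 9.37% of all protein-coding genes and 13.8% of bound ones. The E-box CAGCTG was at 4 summits, of MED25, Polr3E, Polr2A and Taf5 (6.45%, against 7.54%). GAGAG was at 3, of MED25, Polr3E and MED6 (4.84%, against 12.5%), and CACGTG, the CLK and CYC site, at 1, a weak summit of Polr2C (1.61%, against 1.52%). TTGCGCAA and the Zelda word CAGGTAG were at 0 of 62 summits, which allows a share of up to 4.84%, and were at 0.737% and 0.462% of all TSS peaks.

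The 38 unbound members included central subunits. They were MED14, the Mediator scaffold, and MED11, MED18, MED20, MED22, MED1, MED21, MED26, MED16, MED23, MED24 and kto of Mediator. Taf1, the largest TFIID subunit, was among them with Taf2, Taf3, Taf11 and Taf12L, a variant related to Taf12. The TfII genes were TfIIA-S-2, TfIIEbeta, TfIIFalpha and TfIIFbeta. The polymerase genes included Polr1A, the largest polymerase I subunit, Polr1B, Polr1C, Polr1E, Polr2D, Polr2E, Polr2G, Polr2J, Polr2K, Polr2L, Polr2M, Polr3A, the largest polymerase III subunit, Polr3B, Polr3C, Polr3D and Polr3I. Their nearest optimal summit was 1192 bp (Polr2E) to 40410 bp (Taf12L) from a TSS, with a median of 3814 bp. It lay past 10000 bp at 8 of them. These distances were not taken over all unbound protein-coding genes, so they have no background here.

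Many unbound members still had a strong line in a single replicate. A line among the 13583 strongest stood within 1 kb of a TSS in at least 1 replicate at 23 of the 38 (60.5%), against 21.0% of all 7797 unbound protein-coding genes. Replicate 1 had such a line at 2 of them (5.26%, against 3.14%), replicate 2 at 11 (28.9%, against 12.2%) and replicate 3 at 17 (44.7%, against 13.3%). Taf1 had one in replicate 3 alone, at rank 2350, Polr2E in replicate 3 alone, at rank 2527, and Polr2J in replicate 2 alone, at rank 1367. MED16 (ranks 7183, 3219 and 5115) and Taf11 (ranks 4656, 1722 and 5225) had one in every replicate, yet no line of the pooled list lay within 1 kb of their TSSs. Over all protein-coding genes this was so for 28 of the 5075 genes with a line in each of the 3 replicates. The pooled list, from which the optimal peaks are drawn, had a weaker line at 6 of the 38 (15.8%, against 19.7%). In 15 of the 38, among them MED14, Polr1A, Polr3A, Taf12L and TfIIA-S-2, no replicate had a line among its strongest.

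Other genes of the same machinery were counted in the same way. Of 9 TFIIH genes matched, 6 were bound, and the strongest were Ssl1, at rank 42 of the optimal list with replicate ranks of 88, 16 and 48, and Xpd, a DNA helicase, at rank 5636. The Ssl1 summit was nearer to the TSS of Chro. Of 12 pausing and elongation genes, 10 were bound. CycT and Cdk9, the subunits of P-TEFb, which releases paused polymerase II, ranked 45 and 296, with replicate ranks of 38, 70 and 51 for CycT and 273, 436 and 330 for Cdk9. The CycT summit lay 156 bp downstream of its own start, and that of Cdk9 was nearest to bonsai. Of 9 factors of polymerases I and III, 5 were bound, led by Brf and Bdp1, both of the polymerase III factor TFIIIB, at ranks 742 and 1071. Of 15 SAGA coactivator genes 10 were bound, with Gcn5, the acetyltransferase, at rank 2070 and Ada3 at 4520. Tbp and Trf were not bound, Trf2 was, at rank 9108, and the testis genes can, mia, nht and sa were not. The background share for all of these is the 44.1% given above. It was 60.2% for protein-coding genes with another gene's TSS within 1 kb, as at Ssl1 and Cdk9, and 32.0% for those without. These further lists were not split by this, so their shares are descriptions and were not tested.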

How the data were processed

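Pdp1-eGFP ChIP-seq peak lists of 3 replicates, numbered from the labels, were used on dm6. Per the file records, the authors made relaxed lists for single replicates and for the pool, each with a control alignment, as input to IDR, a test of rank agreement between replicates, and derived the optimal list from them. Neither caller nor aligner is given in the sources used here. Signal, like the summit offset, is used as deposited. The deposited −log10 q values were not analysed. All 13583 optimal lines were found in the pooled list, and 0 intervals ended past an arm of the Release 6 genome. Gene models were from Ensembl release 115 (BDGP6.54), with 13945 of 13986 protein-coding genes on the 6 main arms. Coordinates are 1-based. The sequences shown come from the RefSeq Release 6 genome.

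Summits were assigned to every TSS within 1 kb. A replicate line matched an optimal summit within 200 bp. Each word and its reverse complement were looked for within 50 bp of a summit, and in windows 300 bp away on alternating sides. Intervals cover counting only. Medians of signal were 86.1, 37.8 and 26.8 in replicates 1, 2 and 3, so signals were not compared between lists. Programs (Python 3.11.15, numpy 2.4.6, scipy 1.17.1) were tested on simulated data. Members, lists and motifs were chosen with earlier results of these data known. Genes were named as the up to 4 bound members of highest signal in each complex, the unbound members, of which 1 is not reported here, and up to 2 genes per further list; MED7, TfIIS and the single members listed for a motif, a position or a replicate line were named after their values were seen. The Mediator modules were assigned by hand. Alternatives were TSS windows, stricter lists, replicate support, nearest-TSS assignment, word windows and each replicate left out. Lists on dm3 were not used here.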

Additional observations from a re-analysis of the deposited data

How the results depend on the processing

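Leaving out each replicate in turn gave 37 to 39 bound members (35.9 to 37.4% of all genes bound). The median signal was 549.9 to 563.7 (543.5 to 558.7 over all bound genes), and 20.9 to 22.7% of member summits had a family word. The optimal list was derived from all 3 replicates and not called anew. The replicate left out therefore still shaped these 3 values, which cannot show what 2 replicates alone would give. The mean excess over other genes, taken from the replicates' own lists, was 14.3 to 20.9 points. The bound members fell to 28 with the stronger part of the optimal list (29.7% of all genes) and to 29 with summits given to the nearest TSS alone (35.2%). The word share was 6.45% with the nearest TSS alone, 12.2% with a TSS window of 500 bp and 8.11% with one of 250 bp, and the median signal was 661.4 in the stronger part of the list (664.3 over all bound genes). The other alternatives for the count, the word share and the median signal stayed within 1.5 times the count or within the interval of the share or median. The excess was positive in 3 of 3 replicates with other windows and list lengths. Further, 50 members (60.2%, against 45.7% of all genes) had a line among the strongest of 2 or more replicates, and the excess was 8.57 points among genes with a divergent TSS and 1.26 points among genes without, where it was positive in 1 of 3 replicates, all 3 chosen after the data were seen. No paired analysis was possible because the series held 1 group. The lists carry no counts, so depth is unknown.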
